A study of Mus musculus with 4 samples.

Results

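The 2 wild-type arrays of the series measured gene expression in primary dermal fibroblasts of mice taken at postnatal day 1 and labelled adam9 +/+, the wild type. They make up 2 of the 4 arrays. The other 2 hold cells of the adam9 -/- genotype and were not used. Each wild-type array holds 1 isolation of cells, named isolation 1 and isolation 2 in the labels, and no genotype comparison was made. Equal numbers of cells were plated in square 10 cm dishes and left untreated for 48 h before total RNA was taken. The sources used here do not give the strain or the passage, or how many animals were pooled in an isolation. Differences between the isolations therefore have 1 array on each side, and no test was possible.

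For every gene symbol the brightest probe set, by its mean in the wild-type arrays, was kept, which gave 18193 ranked genes. Values are log2 signals, so 1 unit is a 2-fold difference. Genes were to be ranked by the lower of their 2 values, or by isolation 2 if isolation 1 carried leukocyte RNA. The median of 24 macrophage and other leukocyte markers was 7.89 in isolation 1 and 4.37 in isolation 2, so isolation 2 set the ranks. A rank is a position among signals. Probe sets differ in how strongly they bind their target, and neighbouring ranks do not order transcripts by number.

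Dermal fibroblasts build the connective tissue of the skin. They secrete fibrillar collagens, proteoglycans and adhesive glycoproteins, and enzymes outside the cell trim and cross-link these into fibres. In culture on a stiff surface they also assemble actin stress fibres and can take on features of myofibroblasts, the contractile cells of wound repair. The 4 genes used here to mark the cells, Col1a1, Col1a2, Sparc and Dcn, all had high signals in both arrays. Col1a2, the second chain of type I collagen, stood at 14.09 in isolation 1 and 13.93 in isolation 2 and ranked 10. Sparc, a secreted collagen-binding glycoprotein also called osteonectin, stood at 14.10 and 14.03 and ranked 6. Dcn, the proteoglycan decorin that coats collagen fibrils, stood at 13.41 and 12.32 and ranked 200. Col1a1, the main chain of type I collagen, stood at 12.15 and 11.36 and ranked 574. Its other probe set gave 11.84 and 11.30. By isolation 1 alone Col1a1 ranked 243 and by the mean of both arrays 363. Dcn ranked 51 and 99 in the same way, so the places of Col1a1 and Dcn moved with the array more than that of Col1a2.

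Adam9, which encodes the membrane metalloprotease deleted in the other arrays, stood at 11.58 and 11.70 and ranked 399. Both arrays had Y-linked signal, with Eif2s3y at 9.19 and 9.31, and low values for Xist, the RNA that silences an X chromosome in female cells, at 4.29 and 4.32. Array controls for beta-actin read 0.218 and 0.149 log2 units more at the poly(A) end than at the far end, a gap that grows when RNA is degraded.

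The highest ranks combined the translation machinery, the actin cytoskeleton and secreted matrix. Of the 40 highest genes, 37 belonged to the 27 family lists. Tmsb10, the actin monomer-binding peptide thymosin beta 10, had the highest signal at 14.37 and 14.27. Lgals1, the secreted lectin galectin-1, followed at 14.17 and 14.18, and Actb, cytoplasmic beta-actin, at 14.11 and 14.15. Tpt1, a growth-related protein controlled at translation, stood at 14.22 and 14.11, and Eef1a1, which brings aminoacyl-tRNA to the ribosome, at 14.08 and 14.07. In all of these both isolations were close to each other and near the top of the scale, whose highest value was 14.37.

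Ranks 7 to 10 held Fth1, the heavy chain of the iron store ferritin (13.91 and 14.01), Acta2, the smooth muscle alpha-actin that marks myofibroblasts (13.87 and 13.96), S100a6, a calcium-binding protein (13.83 and 13.94), and Col1a2. Of the 40, 13 were cytoplasmic ribosomal protein genes, 5 were S100, annexin or galectin genes, 4 were actin or contractile genes and 3 were collagen chains. The 3 outside every family list were Malat1, a nuclear long noncoding RNA (13.53 and 13.69), Itm2b, a membrane protein (13.80 and 13.56), and Nme2, a nucleoside diphosphate kinase (13.47 and 13.54).

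**Figure D1:**
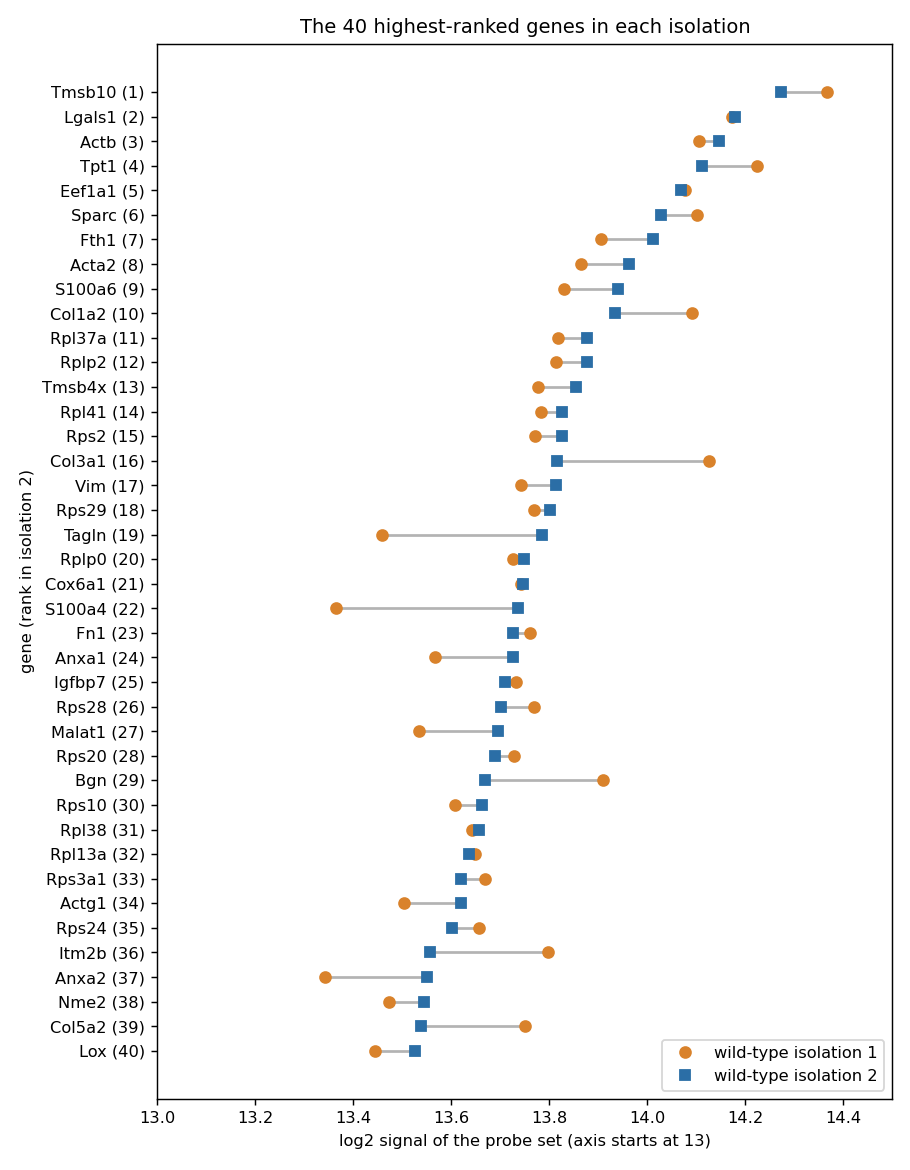
Log2 signal of the 40 highest-ranked genes in wild-type isolation 1 (circles) and isolation 2 (squares), 1 array each, with the gene's rank in isolation 2 in brackets; the horizontal axis starts at 13. The 40 genes span 0.747 log2 units in isolation 2, and the widest gap between the isolations is that of S100a4, at 0.37.

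The order inside this group was not resolved by the arrays. Neighbouring ranks were a median of 0.0125 log2 units apart and at most 0.0926, while the difference between isolations had an SD of 0.138 over the 40 genes. Of 39 neighbouring pairs, 19 had the same order in isolation 1 and 20 the opposite order. Membership was steadier than order. Of the 40 highest genes, 35 were among the 40 highest of isolation 1. Of the 500 highest, 439 (87.8%) were among the 500 highest of isolation 1 and 460 among the 500 highest by the lower of both values. The 500th rank had a signal of 11.50 (Rab7) and the 501st of 11.50 (Rpn1). In all, 326 genes lay within 0.311 of that value, which is the SD of the difference between isolations over the 500 genes.

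Probe sets of a single gene often disagreed. Among the 500 highest genes, 360 had more than 1 probe set, and the highest and lowest of a gene were a median of 5.51 log2 units apart in isolation 2. The 5 probe sets of Tmsb10 ran from 3.98 to 14.27 there. When the mean over all probe sets represented each gene, 289 of the 500 genes stayed among the 500 highest. Without probe sets whose names end in _x_at or _s_at, which can bind related transcripts, 417 stayed, and Tmsb10 ranked 13367.

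Across the families, 258 of 711 distinct genes ranked among the 500 highest. The 500 ranks are 2.75% of all genes ranked and 3.76% of the 13281 genes above a filter on dim probe sets (the 40th percentile, 4.18). The members of each family are read against the first of these shares. Over all ranked genes, 49.9% had the higher value in isolation 1 and 49.5% in isolation 2, and the rest were equal. Of genes above the filter, 2.42% were over 1 log2 unit higher in isolation 1 and 0.881% in isolation 2. The lists hold many genes known to be abundant in fibroblasts, so high shares describe the cells and test nothing.

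**Figure D2:**
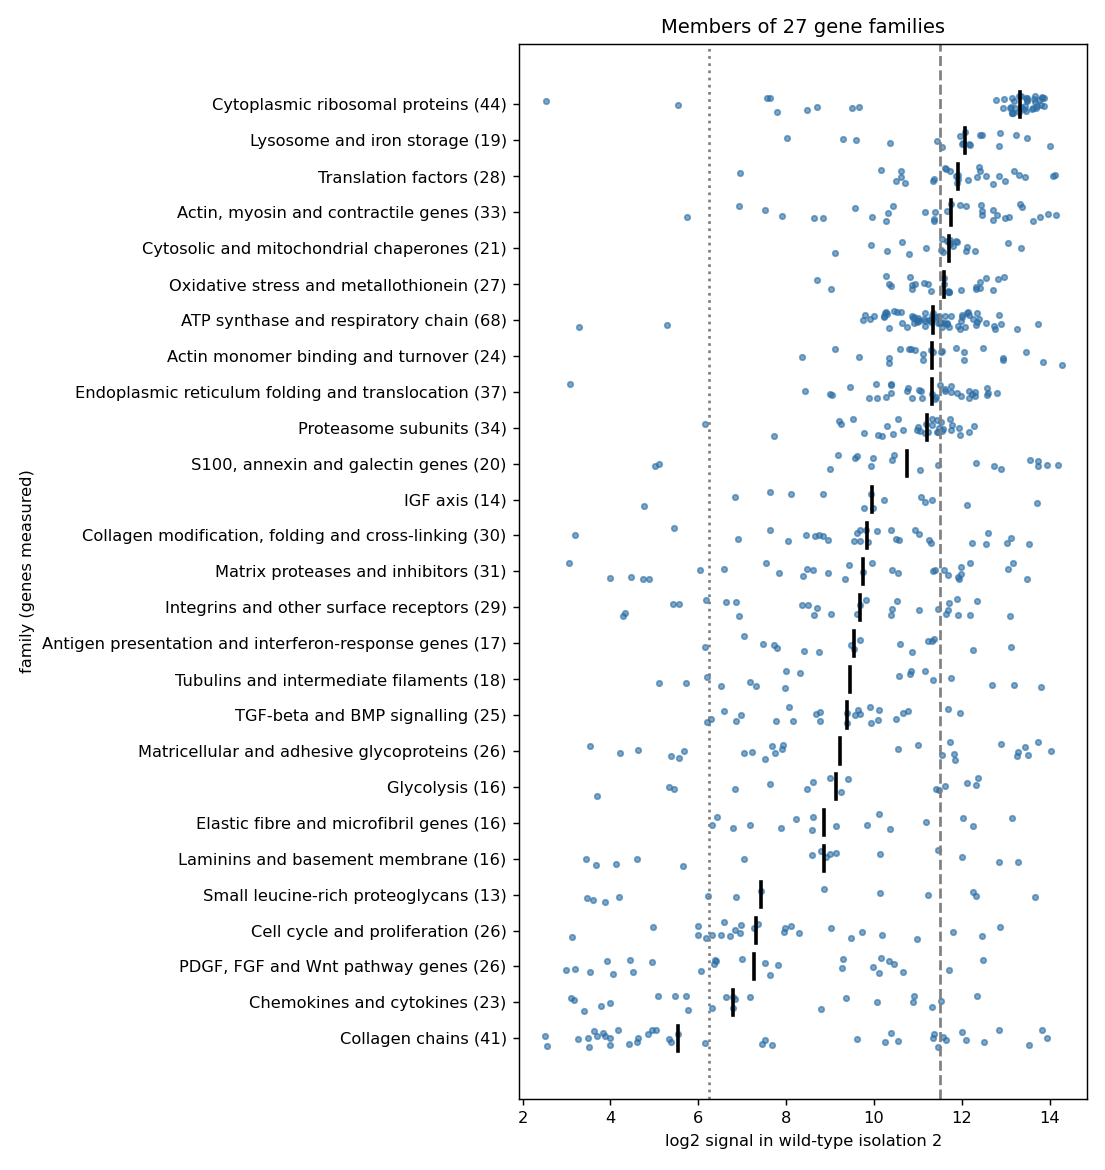
Log2 signal in wild-type isolation 2 of each measured member (points) of 27 gene families, ordered by family median (black bars), with the number measured in brackets. The dashed line marks the signal at rank 500 (11.50) and the dotted line the median of all ranked genes (6.25); the medians run from 5.55 for the collagen chains to 13.32 for the ribosomal proteins.

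Collagen chains spread over a wide range of signals, from 2.52 to 13.93 in isolation 2. Of 41 measured, 9 (22.0%) were among the 500 highest and 22 lay below the median of all genes in isolation 2. The median divides all ranked genes evenly, so 22 of 41 is an ordinary count. Chains such as Col7a1 (9.17 and 10.55) and Col18a1 (8.02 and 7.46) lay between the extremes. Col3a1, the fibrillar type III chain found with type I in young skin, stood at 14.13 and 13.82, and Col5a2, a chain of the type V collagen that starts fibrils, at 13.75 and 13.54. The basement membrane chains Col4a1 (12.84 in each array) and Col4a2 (12.12 and 12.01) and the type V chain Col5a1 (12.72 and 12.49) were also among the 500. Type VI collagen, which forms beaded microfibrils, was higher in isolation 1 for all 3 of its main chains. Col6a3 stood at 12.81 and 12.09, Col6a2 at 12.62 and 11.46, and Col6a1 at 12.31 and 11.37. Col17a1, a keratinocyte collagen, was low in both (2.65 and 3.25).

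Enzymes and chaperones of collagen assembly were mostly bright and alike in the isolations. Of 30 measured, 6 (20%) were among the 500 highest, and none differed by over 1 log2 unit. Lox, which oxidises lysines so that collagen and elastin cross-link, stood at 13.44 and 13.53. Pcolce, an enhancer of procollagen C-proteinase, stood at 13.32 and 13.12, and Serpinh1, the collagen chaperone HSP47, at 13.20 and 13.03. P4hb, a subunit of prolyl 4-hydroxylase, stood at 12.53 and 12.59, and the prolyl isomerase Fkbp9 at 12.70 and 12.56.

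Small leucine-rich proteoglycans, which bind collagen fibrils and set their width, differed more between the arrays. Of 13 measured, 3 (23.1%) were among the 500 highest by isolation 2 and 5 by isolation 1, and 11 had the higher value in isolation 1. Bgn, biglycan, stood at 13.91 and 13.67, and Aspn, asporin, at 12.93 and 12.25. Ogn, osteoglycin, stood at 12.07 and 11.22, and Lum, lumican, at 12.38 and 10.13. Lum had rank 1642 in isolation 2.

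Matricellular and adhesive glycoproteins, which link cells to fibres or tune growth factor signals, had 11 of 26 measured members (42.3%) among the 500 highest. Fn1, fibronectin, stood at 13.76 and 13.73. Postn, periostin, stood at 13.94 and 13.50, Thbs1, thrombospondin 1, at 13.41 and 13.44, and Nid1, nidogen 1, at 12.67 and 13.29. Isolation 1 was over 1 log2 unit higher for 6 members and isolation 2 for 2, Ccn2 and Ccn5. Ccn2, connective tissue growth factor, stood at 11.39 and 12.88.

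Elastic fibre genes had 3 of 16 measured members (18.8%) among the 500 highest. They were Fbln2, fibulin 2 (13.19 and 13.15), Efemp1, fibulin 3 (12.06 and 12.26), and Fbln5, fibulin 5, which organises elastin (12.81 and 12.02). Eln, elastin itself, was near the median of all genes, at 7.03 and 6.42. Laminins and other basement membrane genes had 3 of 16 (18.8%), namely Nid1, Col4a1 and Col4a2. Lamb1, laminin beta 1, came next at 11.73 and 11.46, while the epithelial chains Lama3 (4.08 and 4.12) and Lamb3 (3.47 and 3.68) were low.

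Matrix proteases and their inhibitors had 10 of 31 (32.3%). Ctsl, the lysosomal protease cathepsin L, stood at 13.41 and 13.49, and Timp2, an inhibitor of metalloproteinases, at 13.27 and 13.16. Serpinf1, pigment epithelium-derived factor, stood at 13.22 and 13.05, Ctsb, cathepsin B, at 12.72 and 12.18, and Adamts5, an aggrecanase, at 12.03 and 11.98. The membrane collagenase Mmp14 stood at 12.04 and 11.60 and the gelatinase Mmp2 at 12.34 and 11.38. Mmp13, a collagenase of tissue remodelling, was low at 4.49 and 3.05, as was Mmp3, stromelysin 1, at 5.88 and 3.99.

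The actin, myosin and contractile genes were among the highest families. Of 33 measured, 18 (54.5%) were among the 500 highest, and 26 had the higher value in isolation 2. Tagln, transgelin, an actin-binding protein of smooth muscle, stood at 13.46 and 13.79. Actg1, cytoplasmic gamma-actin, stood at 13.50 and 13.62, and Tpm2, a tropomyosin, at 13.07 and 13.37. Actin genes are close copies of each other, and the probe sets of Acta2 and Actg1 end in _s_at, so their signals may be shared among actins. Acta2 ranked 1367 when all of its probe sets were averaged, and 3807 when _x_at and _s_at sets were left out. Isolation 2 was over 1 log2 unit higher for 3 members. They were Acta1, the skeletal muscle alpha-actin (9.97 and 11.40), Actg2, an actin of smooth muscle (10.50 and 11.67), and Cnn1, calponin 1 (10.68 and 11.76).

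Many contractile genes are controlled by serum response factor, which binds the CArG box. The 300 bases around the annotated start of each gene, 250 before and 50 after, were searched for it on both strands, in RefSeq promoters of build GRCm38.p6. It was present in 7 of 33 promoters (21.2%) of 29 contractile genes, against 1.63% of all 32851 promoters and 1.35% of the promoters of ranked genes. The 7 boxes found all read CC, then only A or T, then GG, and looser forms were not counted. Acta2, for example, has ccctatatgg before its annotated start, which was not counted. The stretches below show each of the 7 boxes in capitals with 20 bases on either side, in the order of the genes' ranks. They are shown because the box in this form was more frequent in this family than among all promoters. Most of the family's promoters lacked this form, and looser forms in them were not searched for.
Actg1: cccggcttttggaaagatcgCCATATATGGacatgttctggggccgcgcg
Myl9: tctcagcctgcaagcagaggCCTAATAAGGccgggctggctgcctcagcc
Cnn2: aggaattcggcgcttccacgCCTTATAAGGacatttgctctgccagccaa
Vcl: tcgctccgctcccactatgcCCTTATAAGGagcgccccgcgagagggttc
Acta1: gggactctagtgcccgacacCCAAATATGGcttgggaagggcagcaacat
Myl6: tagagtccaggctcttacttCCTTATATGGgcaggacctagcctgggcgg
Actc1: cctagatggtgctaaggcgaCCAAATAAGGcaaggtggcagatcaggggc

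These stretches lie at chr11:120348556-120348605 on the minus strand (Actg1), chr2:156775283-156775332 on the plus strand (Myl9), chr10:79988524-79988573 on the plus strand (Cnn2) and chr14:20929151-20929200 on the plus strand (Vcl). The others lie on the minus strand at chr8:123894819-123894868 (Acta1), chr10:128493030-128493079 (Myl6) and chr2:114052893-114052942 (Actc1). The boxes start 47 to 227 bases before the annotated gene start. All 7 genes had the higher value in isolation 2, and 4 were among the 500 highest. Of all 33 measured members of the family, with or without a box, 26 were higher in isolation 2 and 18 were among the 500 highest. Myl9, a regulatory myosin light chain, stood at 12.67 and 12.99, Cnn2, calponin 2, at 12.32 and 12.47, and Vcl, the focal adhesion protein vinculin, at 11.86 and 12.11. Actc1, the cardiac actin, held the box and was low at 5.32 and 5.74. A box in the window describes the sequence and says nothing of its use in these cells.

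Genes of actin turnover had 11 of 24 members (45.8%) among the 500 highest by isolation 2 and 8 by isolation 1. Besides Tmsb10 they were led by Tmsb4x, thymosin beta 4 (13.78 and 13.85), Gsn, the filament-severing protein gelsolin (13.66 and 13.46), Dstn, destrin (12.68 and 12.94), and Arpc2, a subunit of the Arp2/3 complex (12.92 and 12.93). All 24 had signals above 8 in both arrays, and 31.0% of all ranked genes stood at 8.01 or higher in isolation 2. Tubulins and intermediate filament genes had 4 of 18 (22.2%), and all 18 had the higher value in isolation 2. Vim, vimentin, the filament protein of mesenchymal cells, stood at 13.74 and 13.81, Tuba1a, an alpha-tubulin, at 13.04 and 13.19, and Tubb5, a beta-tubulin, at 12.54 and 12.70. Krt18, a keratin of simple epithelia, stood at 6.29 and 8.31, a difference of 2.02.

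Cytoplasmic ribosomal protein genes had the highest share of any family. Of 44 measured, 35 (79.5%) were among the 500 highest and 34 among the 100 highest, with medians of 13.31 and 13.32. Of 79 genes listed, 35 had no probe set naming them alone and were not ranked. Rpl37a (13.82 and 13.88), Rplp2, an acidic stalk protein (13.81 and 13.88), and Rpl41 (13.78 and 13.83) led the large subunit. Rps2 (13.77 and 13.82) and Rps29 (13.77 and 13.80) led the small subunit. The probe sets of Rpl41, Rps2 and Rps29 end in _x_at. Without _x_at and _s_at sets Rpl41 ranked 8887, Rps2 and Rps29 had no rank, and 27 of the family were among the 500 highest. The signed difference, isolation 2 minus isolation 1, had a median of 0.02, with 16 members higher in isolation 1 and 27 in isolation 2. A signed median near 0 does not measure the size of the differences. None was over 1, and the largest was 0.71, for Rpl12 (6.91 and 7.63). Rps16 (2.72 and 2.53) and Rpl39 (5.57 and 5.54) were low in both arrays, although ribosomes hold their subunits in equal number, so the signal of a probe set is no measure of the protein's share. Ribosomal protein genes also have many processed copies in the genome, which their probe sets may not separate.

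Translation factors had 20 of 28 (71.4%). After Tpt1 and Eef1a1 came Pabpc1, the poly(A)-binding protein (13.46 and 13.44), Eef1b2 (13.38 and 13.29) and Eif5a (12.93 and 13.19), which act in elongation. Eef1a2, the form of the elongation factor known from muscle and neurons, was at 6.96 and 6.94.

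Promoters of genes in the highest ranks were also searched, on both strands, for the TATA motif TATAAA, for the Sp1-family motif GGGCGG and for the motif CCAAT, which reads ATTGG on the other strand. The motifs may overlap each other. Of the 40 highest genes, 32 had at least 1 promoter in the table. TATAAA was in 24.3% of their 37 promoters, against 12.2% for the 500 highest ranks and 13.6% for all promoters. All promoters include those of genes not ranked, and the share was 9.77% for ranked genes and 7.78% for genes above the filter. GGGCGG was in 62.2% for the 40 highest, 64.8% for the 500 highest and 35.7% for all promoters. It was in 59.9% of the promoters of genes above the filter, so most of its excess over all promoters was shared by genes of ordinary signal. CCAAT was in 27%, 36.5% and 37.4% for the 40 highest, the 500 highest and all promoters. The stretches below run from 100 bases before the annotated start to 20 after, with the motifs in capitals. They belong to a cytoskeletal gene, calcium-binding genes, a collagen gene and a ribosomal gene. Each shown holds a motif, so they do not represent the 40 highest genes. Sparc, S100a6 and Col3a1, for example, held none in this stretch. In Col1a2 the motif lies in the 20 bases after the annotated start.
Vim: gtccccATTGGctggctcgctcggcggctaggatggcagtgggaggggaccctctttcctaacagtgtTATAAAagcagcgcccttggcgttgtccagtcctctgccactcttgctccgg
S100a4: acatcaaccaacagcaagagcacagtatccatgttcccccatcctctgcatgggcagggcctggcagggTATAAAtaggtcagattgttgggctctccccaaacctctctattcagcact
Anxa2: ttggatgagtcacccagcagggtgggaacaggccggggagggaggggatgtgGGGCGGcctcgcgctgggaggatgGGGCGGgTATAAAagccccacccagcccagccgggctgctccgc
Col1a2: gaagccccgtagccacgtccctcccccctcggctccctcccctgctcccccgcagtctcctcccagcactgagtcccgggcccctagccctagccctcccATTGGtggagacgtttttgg
Rplp0: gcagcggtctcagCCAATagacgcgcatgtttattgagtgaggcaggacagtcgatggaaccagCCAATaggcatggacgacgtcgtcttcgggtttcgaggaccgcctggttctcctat

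These lie, all on the plus strand of GRCm38.p6, at chr2:13574211-13574330 (Vim), chr3:90603670-90603789 (S100a4), chr9:69453583-69453702 (Anxa2), chr6:4505518-4505637 (Col1a2) and chr5:115559367-115559486 (Rplp0). Annotated starts can differ from the starts used in these cells.

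Genes of energy metabolism were high as a group. For the ATP synthase and the respiratory chain, 30 of 68 measured (44.1%) were among the 500 highest by isolation 2 and 24 by isolation 1. Of the 68, 55 had the higher value in isolation 2. Cox6a1, a subunit of cytochrome c oxidase, stood at 13.74 and 13.75, Uqcrb, of complex III, at 13.38 and 13.26, and Atp5b, the catalytic beta subunit of ATP synthase, at 12.57 and 12.89. Glycolysis had 4 of 16 (25%), with the higher value in isolation 2 for 12. Aldoa, aldolase A, stood at 11.99 and 12.38, Pgk1, phosphoglycerate kinase, at 11.71 and 12.33, Pkm, pyruvate kinase, at 11.64 and 12.11 and Pgam1, phosphoglycerate mutase, at 11.10 and 11.62. Outside the array controls, no probe set named Gapdh alone, and it was not ranked.

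Protein folding and disposal followed. Cytosolic and mitochondrial chaperones had 15 of 21 (71.4%) by isolation 2 and 10 by isolation 1, and 19 had the higher value in isolation 2. They were led by Hspa8, the constitutive HSP70 (13.36 in each array). Hspb1, the actin-protecting small heat shock protein HSP27, differed by 1.14, at 11.91 and 13.04. Endoplasmic reticulum genes had 15 of 37 (40.5%). The disulphide isomerase Pdia3 stood at 12.80 and 12.81, the lectin chaperone Calr, calreticulin, at 12.61 and 12.58 and the HSP70 of the reticulum, Hspa5, at 12.62 and 12.57. Proteasome subunits had 10 of 34 (29.4%) by isolation 2 and 6 by isolation 1. Of the 34, 32 were higher in isolation 2, none by over 1. Psma3 stood at 12.07 and 12.27.

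Lysosome and iron storage genes had 14 of 19 (73.7%), and 17 had the higher value in isolation 1. Laptm4a, a lysosomal membrane protein, stood at 13.52 and 13.24, Lamp1 at 12.92 and 12.86, and Npc2, which moves cholesterol out of lysosomes, at 13.07 and 12.85. Macrophages are rich in lysosomes, and the median of the leukocyte markers was 3.52 higher in the same isolation. Their part in these differences was not tested.

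S100, annexin and galectin genes had 8 of 20 (40%), 5 of them among the 40 highest, and 15 were higher in isolation 2. S100a4, a mesenchymal calcium-binding protein also known as FSP1, stood at 13.36 and 13.74. Anxa1, annexin A1, stood at 13.57 and 13.73 and Anxa2, annexin A2, which bind membranes in the presence of calcium, at 13.34 and 13.55. Surface receptors had 8 of 29 (27.6%), led by the tetraspanins Cd81 (13.15 and 13.09) and Cd151 (11.51 and 12.35), the mesenchymal cadherin Cdh11 (12.80 and 12.19) and the integrin subunits Itgb1 (11.63 and 11.92) and Itgav (11.83 and 11.89). No measured member of that list differed by over 1 log2 unit.

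Signalling lists had 2 members each among the 500 highest. The IGF axis had 2 of 14 (14.3%), Igfbp7, a secreted binding protein (13.73 and 13.71), and the protease Htra1 (11.41 and 12.11). Isolation 1 was over 1 log2 unit higher for 4 members. They were Igf2, the fetal growth factor (9.43 and 6.83), Igfbp3 (10.18 and 8.12), Igf1 (10.13 and 8.84) and Igfbp5 (11.09 and 9.97). TGF-beta and BMP signalling had 2 of 25 (8%), Inhba, which forms activin A (11.53 and 11.96), and the receptor Tgfbr2 (12.16 and 11.69). PDGF, FGF and Wnt genes had 2 of 26 (7.69%), Ctnnb1, beta-catenin (12.53 and 12.47), and the receptor Pdgfrb (12.02 and 11.72). Pdgfra, the other PDGF receptor, stood at 11.93 and 10.35.

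Chemokines and cytokines had 2 of 23 (8.70%), Mif (11.80 and 12.34) and Cxcl12, which attracts leukocytes and stem cells (11.98 and 11.52). Isolation 1 was over 1 log2 unit higher for 5, among them Ccl8 (11.09 and 8.79) and Ccl11, eotaxin (9.66 and 6.84). Antigen presentation and interferon-response genes had 2 of 17 (11.8%), and all 17 had the higher value in isolation 1. B2m, the light chain of MHC class I, stood at 13.39 and 13.12, and Ifitm3 at 12.63 and 12.27. Leukocytes express these lists too, and their part was not tested.

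Oxidative stress and metallothionein genes had 15 of 27 (55.6%) by isolation 2 and 11 by isolation 1. Gsto1, a glutathione transferase, stood at 12.31 and 12.96, Txn1, thioredoxin, at 12.32 and 12.82, and Gstp1 at 12.48 and 12.70. Isolation 1 was over 1 log2 unit higher for 1 member, the selenium carrier Selenop (12.85 and 11.58), and isolation 2 for 5. Among these were Nqo1, a quinone reductase (9.61 and 11.31), Gclm, a subunit of the enzyme that starts glutathione synthesis (10.07 and 11.59), Gsta4 (10.83 and 11.97) and Hmox1, haem oxygenase 1 (10.69 and 11.70).

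Among cell cycle genes 3 of 26 (11.5%) were among the 500 highest. They were the cyclin Ccnd2 (12.92 and 12.86) and 2 inhibitors of the cycle, Cdkn1a, which encodes p21 (12.09 and 12.45), and Cdkn2a, which encodes p16 and p19Arf (11.80 in each array). The DNA clamp Pcna stood at 10.43 and 10.18. The medians of the list were 7.35 and 7.31, and no member differed by over 1 log2 unit between the isolations.

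Transcription factors of mesenchyme, a list added after values had been seen, had 0 of 27 members among the 500 highest. In both arrays 11 were above 8 and 8 were below the median of all genes. In isolation 2, 31.0% of all ranked genes stood at 8.01 or higher, and the share above 8 in both arrays was not counted. The list medians were 7.89 and 7.62, against 6.35 and 6.25 for all ranked genes. Among the low members were Tcf21 (3.47 and 3.56) and Foxd1 (2.49 and 2.94). Prrx1, a homeobox gene of limb and skin mesenchyme, stood at 11.34 and 11.12, Snai2, a zinc finger factor of mesenchymal cells, at 11.62 and 10.86, and Twist2, a regulator of dermal progenitors, at 10.39 and 10.04. Hox genes, which keep a record of the position along the body from which a fibroblast came, were also added. Their medians were 6.74 and 6.35, near those of all ranked genes. Of 33 measured, 6 were above 8 in both arrays, and 4 of these were among the 7 measured genes of the Hox C cluster. They were Hoxc8 (10.53 and 10.41), Hoxc9 (8.78 and 8.75), Hoxc6 (8.14 and 8.29) and Hoxc10 (8.37 and 8.01). Hoxa13, a gene of the distal limb and tail, was low at 3.44 and 3.83.

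Markers set the cells apart from most other cell types of skin. The 18 dermal fibroblast markers had medians of 12.08 and 11.27, against 6.35 and 6.25 for all ranked genes, and 8 (44.4%) were among the 500 highest. Thy1, a surface glycoprotein of fibroblasts, stood at 12.41 and 12.33. Other members were lower, such as Fbln1 (8.36 and 6.79) and En1 (6.43 and 5.77). In isolation 2, En1 was the 1 member below the median of all ranked genes. Isolation 1 was over 1 log2 unit higher for 5 markers and isolation 2 for none. Markers of the upper, papillary dermis were lower, with medians of 6.88 and 6.39 over 10 genes. Pdpn, podoplanin, stood at 11.71 and 11.34, Col7a1, the anchoring fibril collagen, at 9.17 and 10.55 and Dpp4 at 4.85 and 4.62. The 9 measured markers of the reticular dermis and hypodermis had medians of 9.08 and 7.43. Plac8 stood at 11.11 and 12.36, whereas the imprinted gene Mest, at 9.08 and 6.25, was higher in isolation 1.

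**Figure D3:**
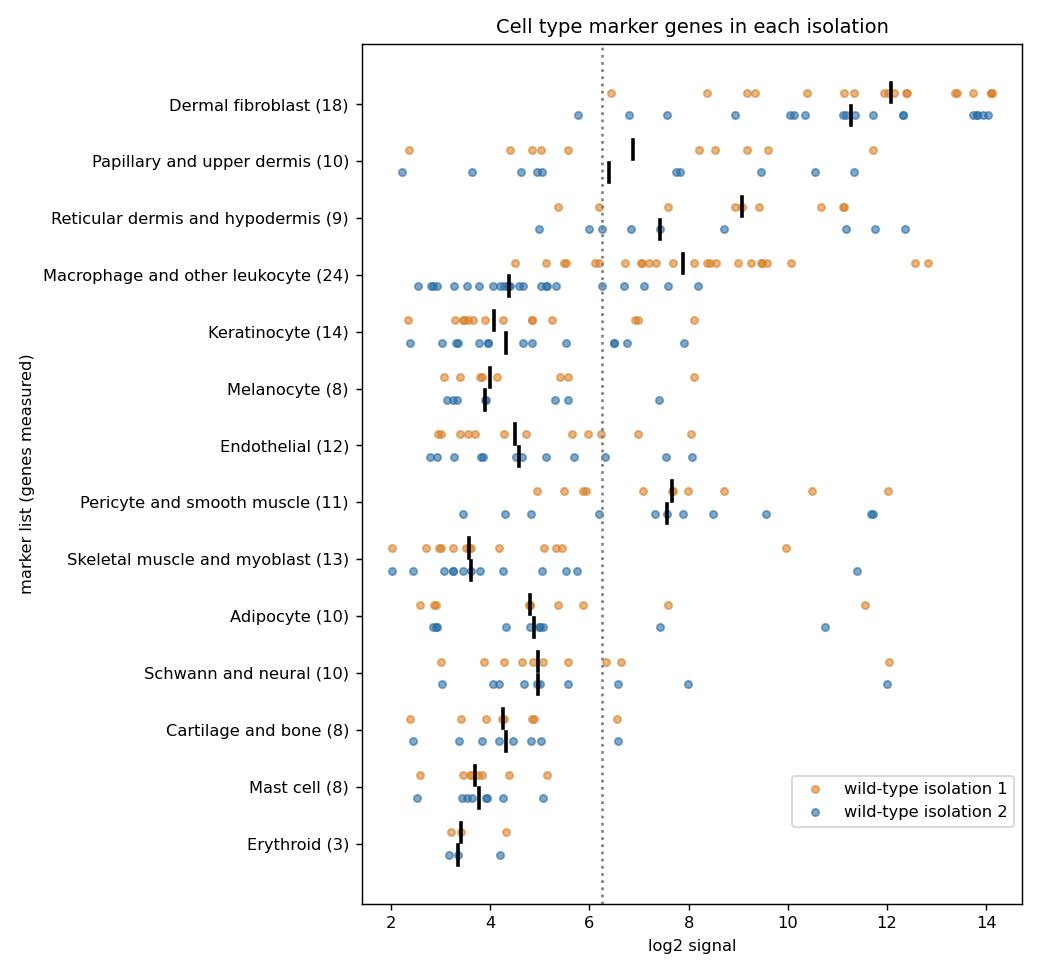
Log2 signal of each measured marker gene (points) of 14 cell type lists in wild-type isolation 1 (orange, upper row) and isolation 2 (blue, lower row), with list medians as black bars and the number measured in brackets. The dotted line is the median of all ranked genes in isolation 2 (6.25); the leukocyte median is 7.89 in isolation 1 and 4.37 in isolation 2.

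Keratinocyte markers had medians of 4.07 and 4.31 over 14 genes, with Krt14, a basal keratin, at 3.90 and 3.96. Endothelial markers had medians of 4.49 and 4.58 over 12, with Pecam1 at 2.94 and 2.79. Melanocyte markers had medians of 3.99 and 3.90 over 8, skeletal muscle markers of 3.58 and 3.61 over 13, mast cell markers of 3.69 and 3.78 over 8 and erythroid markers of 3.40 and 3.35 over 3. Cartilage and bone markers had medians of 4.25 and 4.31 over 8. These medians were all below that of all ranked genes. Single members stood above their list, such as Perp, a desmosome-associated protein (8.10 and 7.90), and Eng, endoglin, which fibroblasts also express (8.05 and 8.06). In the Schwann cell list, Pmp22, a gene also expressed in fibroblasts, stood at 12.04 and 11.99, while the other 9 were at 8 or lower. Adipocyte markers had medians of 4.80 and 4.89 over 10, with Lpl, lipoprotein lipase, at 11.55 and 10.75 and Adipoq, adiponectin, at 2.90 in each array. The 11 pericyte and smooth muscle markers had medians of 7.67 and 7.56, above those of all ranked genes, and 2 of them, Pdgfrb and Actg2, were among the 500 highest. Myh11, the smooth muscle myosin heavy chain, stood at 8.71 and 9.57, Mcam at 7.98 and 8.49, and the pericyte marker Rgs5 at 4.94 and 4.83.

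Leukocyte markers separated the isolations. All 24 had the higher value in isolation 1, and 22 of the 23 above the filter did so by over 1 log2 unit. The filter used the mean of both arrays, so markers such as C1qb and Ptprc passed it only through isolation 1. This list had also decided which array set the ranks, so these counts describe the difference and do not test it. In isolation 1 the values ran from 4.50 to 12.84 and 6 markers lay below the median of all genes. In isolation 2 they ran from 2.54 to 8.20 and 19 lay below it. Lyz2, the lysozyme of macrophages, stood at 12.56 and 7.59. C1qb, a subunit of complement C1q, stood at 9.46 and 3.77, and Ptprc, the leukocyte surface protein CD45, at 7.05 and 2.80. The highest leukocyte markers in isolation 2 were Lyz1 (8.20), Lyz2 and the macrophage growth factor receptor Csf1r (7.10). In bulk RNA, fewer cells of a type and less RNA per cell cannot be told apart.

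Over the 13281 genes above the filter, leukocyte genes included, the difference between the isolations had an SD of 0.431 and a median size of 0.156. Without the 24 listed leukocyte markers the SD was 0.404. Pearson's r was 0.979 across genes, which are not independent replicates. Isolation 1 was over 1 log2 unit higher for 322 genes (2.42%) and isolation 2 for 117 (0.881%). With the leukocyte list left out, the count on the side of isolation 1 was 300, which still held macrophage genes outside the list, such as Mpeg1. Among the 500 highest genes, 14 differed by over 1.

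**Figure D4:**
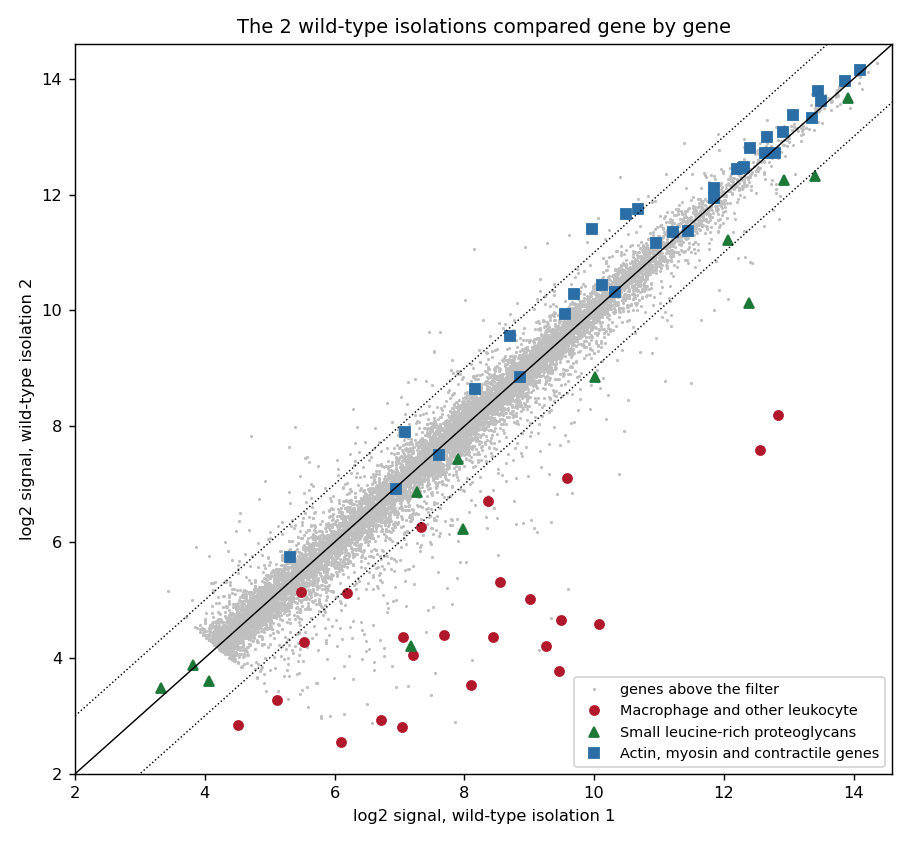
Log2 signal in wild-type isolation 1 (horizontal) and isolation 2 (vertical) of the 13281 genes above the filter (grey) and of all measured members of 3 lists, including those below the filter (coloured); the solid line marks equal values and the dotted lines a difference of 1. All 24 leukocyte markers lie below the solid line, as do 11 of 13 proteoglycans, and 26 of 33 contractile genes lie above it.

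The 15 largest differences on the side of isolation 1 included 10 members of the leukocyte list. The others were Mpeg1, perforin-2 of macrophages (9.16 and 4.14), Ms4a7 (9.33 and 4.69), Apoe, the apolipoprotein that macrophages secrete (9.60 and 5.19), the IgG receptor Fcgr3 (8.12 and 3.96) and Tmem176b (10.38 and 7.17). Matrix and growth genes chosen after their values were seen stood further down. They were Islr, a secreted protein of mesenchymal cells (9.12 and 6.18), Sfrp1, a secreted Wnt antagonist (9.02 and 6.39), the angiotensin receptor Agtr2 (11.50 and 8.74) and Lgr5, a receptor for R-spondins (10.46 and 7.93).

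On the side of isolation 2 the differences were smaller. Ankrd1, a nuclear and sarcomeric protein induced by mechanical load, had the largest, at 8.14 and 11.06, or 7.55-fold. Tgm2, transglutaminase 2, which cross-links matrix proteins, stood at 8.01 and 10.19. Serpinb9b, a protease inhibitor, stood at 8.94 and 11.10, Stmn2, a regulator of microtubules, at 7.63 and 9.62, and Glipr1 at 10.40 and 12.31. Ptgs2, the inducible cyclooxygenase of prostaglandin synthesis, stood at 9.27 and 11.17, and Plaur, the urokinase receptor, at 6.81 and 8.39. Dusp4, a phosphatase of MAP kinases, stood at 7.13 and 8.77.

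**Figure D5:**
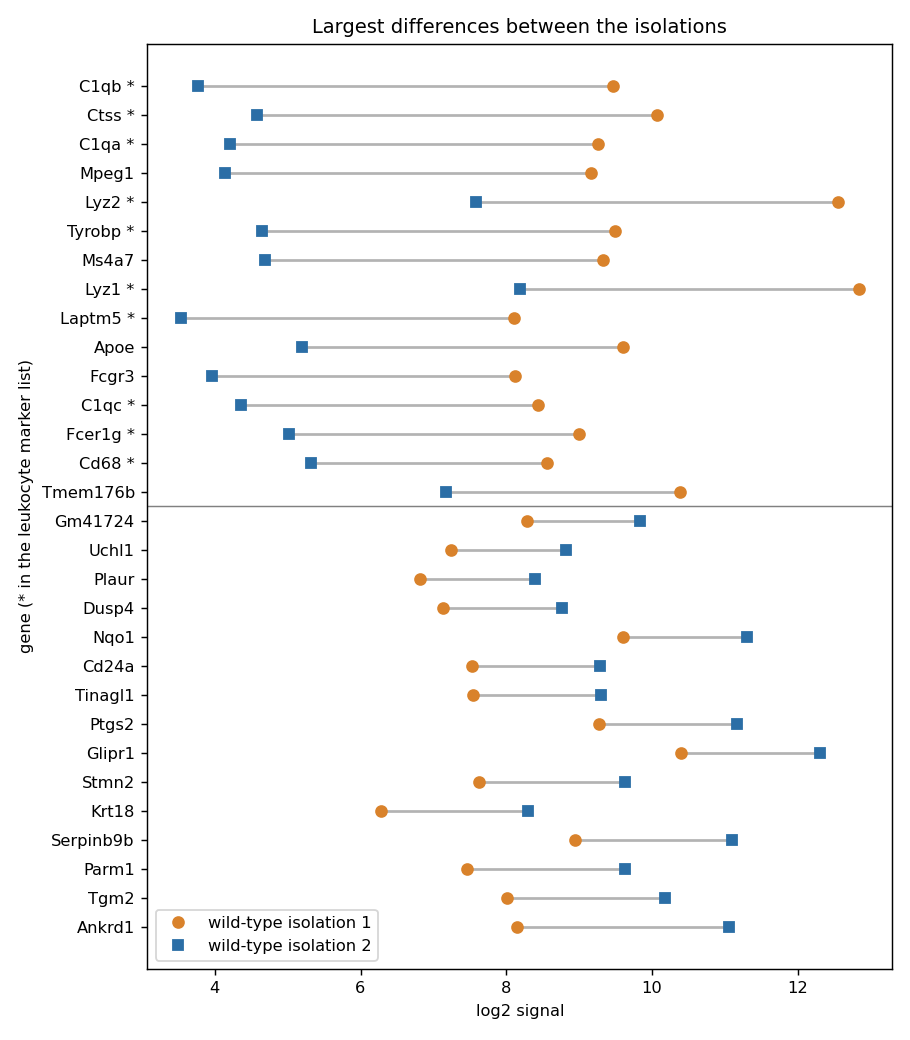
Log2 signal in wild-type isolation 1 (circles) and isolation 2 (squares) of the 15 genes with the largest difference in each direction, among genes above 8 in at least 1 array; the horizontal line separates genes higher in isolation 1 (above) from those higher in isolation 2 (below), and stars mark members of the leukocyte list. C1qb stands at 9.46 and 3.77, the second value being below the filter of 4.18, and Ankrd1 at 8.14 and 11.06; folds against values near or below the filter depend on a background level that is unknown here.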

How the data were processed

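The authors deposited 1 log2 value per probe set and array, made with Affymetrix Expression Console per the submitters' processing notes. The software version, the summary algorithm and the base of the logarithm were not given in the sources used here. A base of 2 was taken from the range of the values (1.70 to 14.4). Array medians were 4.87 in each wild-type array. Detection calls were not used, and the background level of dim probe sets is unknown. The number of arrays limits the precision.

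Of 45101 probe sets, 64 array controls were left out. In the platform annotation, 34945 of the others named 1 gene, 932 several and 9160 none, and only the first were ranked. Among the 500 brightest probe sets, 114 named several genes and 35 none. Symbols of 34741 probe sets were updated by Entrez identifier through RefSeq GRCm38.p6. Of 981 list entries, 880 matched a ranked gene. Tables were made with Python 3.11.15 and pandas 2.3.3. The counting of differences was run on simulated data with less noise than these arrays, which checks the code and not the counts reported here.

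Genes to name were to be the 40 highest, the 5 highest of each family, the 4 highest of each cell type list, the 15 largest differences in each direction among genes above 8 in an array, Adam9 and the 4 marker genes. The text prints a selection of these, and none for some cell type lists. Others, such as low members of a list (Rgs5, Pecam1), were chosen after their values were seen. Members and lists were chosen with earlier results of these data known. The alternatives were other ranking values, probe set choices, filters and normalizations.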

Additional observations from a re-analysis of the deposited data

How the results depend on the processing

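No paired analysis was possible because the wild-type samples form 1 group and no groups were compared. The number of family genes among the 500 highest was 258 and ran from 221 to 257 with other probe set choices or ranking values. It was 243 with isolation 2 left out and 258 with isolation 1 left out. Of 189 family counts under alternatives, 13 moved by over 1.5 times. The 189 include the counts with isolation 1 or dim genes left out, where all 500 genes stayed. Isolation 2 already set the ranks and dim genes lie below them, so those counts say nothing of stability. With the mean over probe sets, the counts were 1 for elastic fibre genes, 6 for matrix proteases and inhibitors, 10 for translation factors, 9 for cytosolic and mitochondrial chaperones, 5 for surface receptors, 4 for the IGF axis, 0 for TGF-beta and BMP signalling, 0 for PDGF, FGF and Wnt genes and 4 for antigen presentation genes, which also had 4 by the mean of both arrays. Without isolation 1 or 2 in turn, proteoglycans had 3 to 5, proteasome subunits 6 to 10 and antigen presentation genes 2 to 4. Cytosolic and mitochondrial chaperones had 10 to 15, a change that was not counted as a move. By the lower of both values, or without _x_at and _s_at probe sets, no family count moved by over 1.5 times. The counts of genes differing between the isolations ran from 240 to 358 and from 92 to 126 over other normalizations, filters and probe set choices. The array medians were equal as deposited, so centring on the median could change little, and it gave 320 and 118. Quantile normalization gave 311 and 117. The cause of these moves was not tested. Leaving out the leukocyte list was chosen after seeing the data.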
